A study of Mus musculus with 6 samples.

Results

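Pdpn, Reln, Mmrn1, Fxyd6 and Tspan18 are 5 markers of lymphatic endothelium whose products sit in the cell membrane or are secreted. They were taken by symbol from the annotation of the Affymetrix arrays, 5 of 18193 genes with at least 1 probe set assigned to that gene alone, and all 5 were among the 12954 genes tested. Values are deposited log2 expression levels per probe set. Tumour lymphatic endothelial cells (LEC) came from C57BL/6 mice bearing T241/VEGF-C/GFP fibrosarcomas, a mouse tumour line carrying the lymphatic growth factor VEGF-C and a green fluorescent marker, and the labels give no age or sex for these mice. Normal dermal LEC came from the tail skin of female C57BL/6 mice aged 8 weeks. Each group had 3 arrays. Cells of both groups were cultured on gelatin in endothelial medium and selected with LYVE-1 antibody on magnetic beads, although the protocol text of the tumour cells runs into that of the skin cells, so their later steps are unclear. For the tumour group the array titles name fibrosarcoma cells and the source descriptions name LEC, and the descriptions are followed here. Nothing in the labels says whether replicates were separate animals, pools or cultures, so p-values measure the spread between these arrays only. Tissue of origin (tumour or tail skin), growth of the tumour, its VEGF-C and any difference in age or sex cannot be told apart here.

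Lymphatic endothelium lines the vessels that drain tissue fluid and carry immune cells to lymph nodes. Its cells are told from those of blood vessels by a program set by the transcription factor PROX1, and by membrane and secreted proteins such as these 5. Podoplanin, the product of Pdpn, is a mucin-type membrane glycoprotein that activates platelets through the receptor CLEC-2 and so helps to keep blood out of lymphatic vessels. Reelin (Reln) is a large secreted glycoprotein best known for ordering neurons in the developing brain, and in mice lymphatic endothelium releases it near the muscle cells of collecting vessels. Multimerin 1 (Mmrn1) is a secreted, multimeric protein of platelets and endothelium that binds coagulation factor V. Fxyd6 encodes a small membrane regulator of the sodium pump, and Tspan18 a tetraspanin that interacts with the calcium channel ORAI1 in endothelial cells.

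None of the 5 genes differed between tumour and normal LEC beyond the spread of the arrays. Pdpn and Reln gave strong signals in both groups, Tspan18 a moderate one, and Mmrn1 and Fxyd6 read at background on nearly every array. By limma with Benjamini-Hochberg adjustment over all genes, 0 of the 5 passed an adjusted p of 0.05, against 0.216% of all genes tested, and 0 of the 5 had an unadjusted p under 0.05, against 15.5% of all genes. The tumour and normal arrays overlapped for every one of the 5. They did not overlap for 32.4% of all genes, 20.9% higher and 11.6% lower in tumour LEC. These shares of all genes include 1849 genes at background on all 6 arrays, where a lack of overlap is no measure of RNA level. Adjusted p-values ran between 0.502 and 0.999 (limma).

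**Figure D1:**
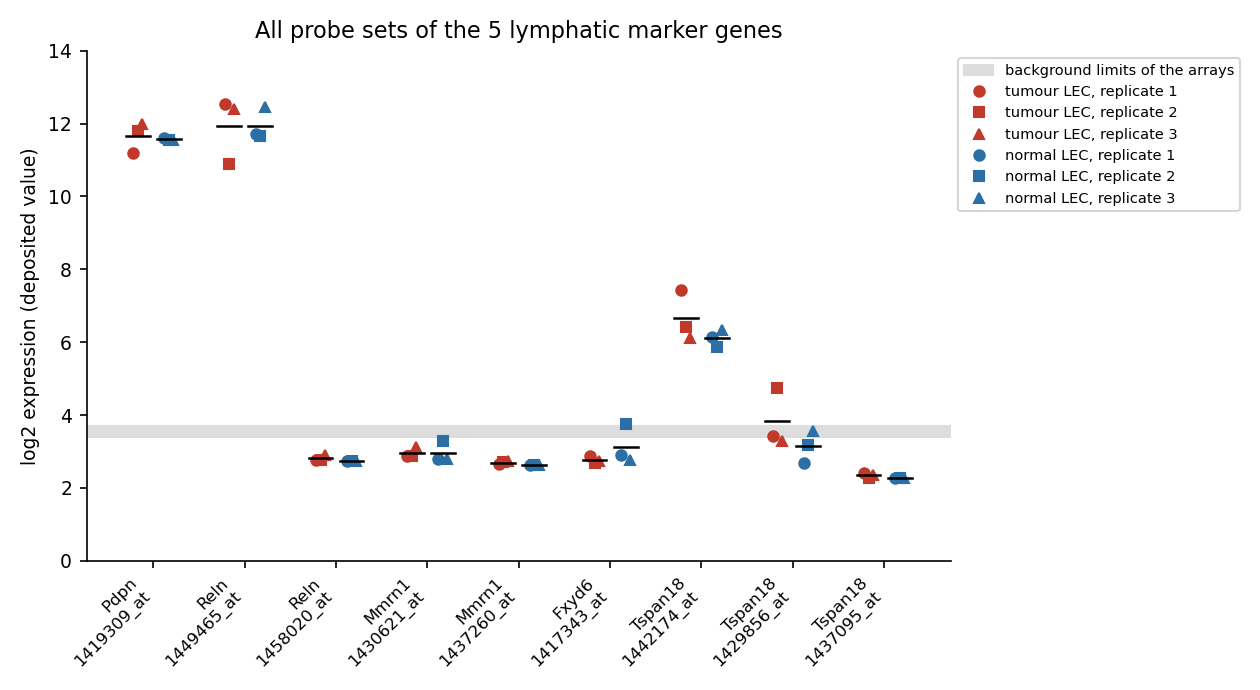
Deposited log2 expression (vertical axis) of all 9 probe sets of the 5 genes on the 3 tumour LEC arrays (red) and the 3 normal LEC arrays (blue), with bars at group means and a grey band for the background limits of the arrays, 3.40 to 3.71. Pdpn, Reln and Tspan18 each have 1 probe set above the band on all 6 arrays, and Mmrn1 has none.

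A value was called at background where it did not exceed the highest of 27 control probe sets for absent bacterial RNA on the same array. These limits lay between 3.40 and 3.71, with the highest in tumour replicate 3, whose array also had the highest median value. The 5 genes have 9 probe sets, of which 3 were above background on all 6 arrays, 1 each for Pdpn, Reln and Tspan18. A reading at background means that a probe set gave no more signal than these controls, not that the RNA was missing.

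The cell type lists describe what the RNA held. LYVE-1, the selection marker, read 14.77, 14.11 and 14.91 in tumour LEC and 14.02, 13.65 and 14.32 in normal LEC (gene Lyve1), and Prox1 was above background on all 6 arrays. Of 15 fibroblast genes 13 were lower and 1 higher without overlap in tumour LEC, and 1 passed the test (Col1a2, lower). The mean log2 level of the 15 was 4.35 to 5.10 in tumour LEC and 7.98 to 10.7 in normal LEC, highest in normal replicate 1. The mean of 15 pan-endothelial genes was 9.09 to 9.72 in tumour LEC and 7.99 to 9.15 in normal LEC, lowest in normal replicate 1. Leukocyte genes had a mean of 8.51 in tumour replicate 1, against 6.04 in tumour replicate 2, 5.37 in tumour replicate 3 and 5.81 to 7.14 on the normal arrays. Krt14, a keratin of basal keratinocytes, was at background on every array. Of 8 keratinocyte genes listed 6 were tested, and 3 of these were above background on at least 1 array. The groups did not overlap for 3 of the 6 (50%), 2 higher and 1 lower in tumour LEC, against 32.4% of all genes tested. In such bulk RNA, fewer cells of a type and less RNA per cell cannot be told apart, and the part of these admixed markers in the results below was not tested.

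**Figure D2:**
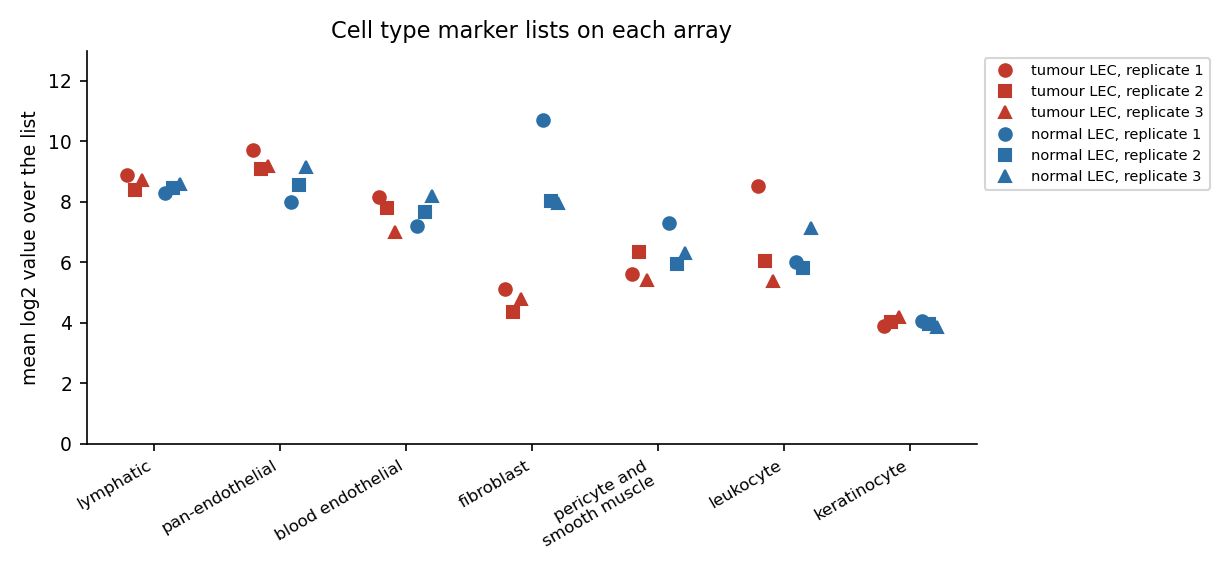
Mean log2 level of each cell type marker list (vertical axis) on the 3 tumour LEC arrays (red) and the 3 normal LEC arrays (blue), one symbol per replicate. The lymphatic list, which includes the 5 genes, lies between 8.38 and 8.88 on the tumour arrays and between 8.30 and 8.60 on the normal arrays, while the fibroblast mean lies lower on the tumour arrays.

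Podoplanin, the best known surface marker of the 5, was nearly level between the groups. Pdpn read 11.18, 11.80 and 12.00 in tumour LEC replicates 1 to 3 and 11.60, 11.56 and 11.56 in normal LEC replicates 1 to 3. The tumour arrays lay on both sides of the normal ones, with replicate 1 below and the others above them. Tumour LEC averaged 11.66 ± 0.42 and normal LEC 11.57 ± 0.022 (SD, n = 3 each), a log2 difference of 0.09 (SE 0.23, limma adjusted p = 0.839). On the linear scale the ratio of tumour to normal LEC was 1.06, with a 95% interval of 0.720 to 1.57.

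The 3 normal arrays agreed closely for Pdpn, within 0.039 log2 units. Of the 9772 genes above background on all arrays, 2.70% had a smaller SD among the normal arrays than Pdpn, and 66.4% had a smaller SD among the tumour arrays. Podoplanin is also made by some fibroblasts, and normal replicate 1, with the highest fibroblast level, also had the highest Pdpn value of the normal arrays, at 11.60. Their relation was not tested. Without tumour replicate 1, the array with the highest leukocyte level, the difference of Pdpn was 0.33 (adjusted p = 0.287, limma), and without tumour replicate 3 it was -0.080.

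Proteins that bind or modify podoplanin gave 0 genes past the threshold among 16 tested of 18 listed, with a median difference of -0.055, against 0.028 for all genes tested. The groups did not overlap for 5 of the 16, 2 higher and 3 lower in tumour LEC, a share of 31.2% near the 32.4% of all genes tested. Cd44, a hyaluronan receptor that associates with podoplanin, read 9.88, 10.82 and 10.03 in tumour LEC and 12.65, 12.38 and 12.06 in normal LEC, a difference of -2.12 (SE 0.30, limma adjusted p = 0.0778). Ezr, which encodes ezrin, a linker of the podoplanin tail to actin, differed by -0.88 (SE 0.28, adjusted p = 0.247), and its relative moesin (Msn) by 0.26 (SE 0.21). Itgb1, the integrin beta 1 chain, differed by 0.57 (SE 0.17), and Lgals8, encoding the podoplanin-binding lectin galectin 8, by 0.10 (SE 0.21). Clec1b, the platelet receptor for podoplanin, was at background on every array.

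Tspan18, the other surface gene with a readable signal, read 7.44, 6.43 and 6.13 in tumour LEC replicates 1 to 3 and 6.15, 5.86 and 6.35 in normal LEC replicates 1 to 3 on its brightest probe set. Tumour replicate 1 stood above all other arrays, and tumour replicate 3 lay below 2 of the normal arrays. Tumour LEC averaged 6.67 ± 0.69 and normal LEC 6.12 ± 0.24 (SD, n = 3 each), a log2 difference of 0.54 (SE 0.37, limma adjusted p = 0.502). The ratio was 1.46 with a 95% interval of 0.773 to 2.75. Without tumour replicate 1 the difference was 0.15.

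The other probe sets of Tspan18 gave little. The second read 3.43, 4.76 and 3.29 in tumour LEC and 2.70, 3.18 and 3.57 in normal LEC, above background in tumour replicate 2 and normal replicate 3 only. Its highest array was thus not the highest array of the brightest probe set. The third was at background on all arrays.

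Among tetraspanins and genes of store-operated calcium entry, 0 of 28 tested passed, with a median difference of 0.14. The groups did not overlap for 6 (21.4%), against 32.4% of all genes tested in either direction. All 6 were higher in tumour LEC, while of all genes tested 20.9% were higher and 11.6% lower without overlap. Orai1, the calcium channel that binds the Tspan18 product, differed by 0.43 (SE 0.18, limma adjusted p = 0.341), and Stim1, the calcium sensor that opens it, by 0.64 (SE 0.18, adjusted p = 0.214). Tspan6 and Tspan12, the members with the smallest p, differed by 1.41 (SE 0.38) and 1.64 (SE 0.46), with limma adjusted p of 0.200 and 0.211, and Cd9 by -0.29 (SE 0.28).

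Fxyd6, the remaining membrane gene, has 1 probe set, which read 2.88, 2.68 and 2.73 in tumour LEC and 2.90, 3.74 and 2.76 in normal LEC. Only normal replicate 2 exceeded the background limit of its array, 3.47. The groups overlapped, and no fold change is given because 5 of the 6 arrays were at background (limma adjusted p = 0.533). Fxyd5, a family member also known as dysadherin, was by contrast far above background, with readings of 11.94, 11.59 and 12.00 for tumour LEC and 10.99, 11.67 and 11.91 for normal LEC, and differed by 0.32 (SE 0.27). Of the FXYD family and sodium pump subunits 5 of 14 were tested and 0 passed. Atp1b1, a pump beta subunit, differed by 0.18 (SE 0.35), and Atp1a4 and Fxyd2 had the smallest p (limma adjusted p = 0.496 and 0.514). Atp1a4 was at background on all arrays and Fxyd2 on all but tumour replicate 3.

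Reelin was the secreted marker with a strong signal. Reln read 12.55, 10.88 and 12.40 in tumour LEC replicates 1 to 3 and 11.72, 11.65 and 12.46 in normal LEC replicates 1 to 3. Tumour replicate 2 was the lowest of the 6 arrays, and the other tumour arrays lay close to normal replicate 3. The means coincided, with 11.94 ± 0.93 for tumour LEC and 11.94 ± 0.45 for normal LEC (SD, n = 3 each), a log2 difference of -0.00061 (SE 0.51, limma adjusted p = 0.999). The ratio was 1.00, but with a 95% interval of 0.415 to 2.41, so equal means do not establish equal levels.

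Single arrays moved the value of Reln in either direction. Without tumour replicate 2 the difference was 0.53, without tumour replicate 1 it was -0.30, and without normal replicate 3 it was 0.26, none past the threshold. With arrays weighted by quality it was -0.86 (SE 0.44, limma adjusted p = 0.334). Among the tumour arrays 92.8% of the genes above background had a smaller SD than Reln. A second Reln probe set was at background on all 6 arrays, between 2.73 and 2.91.

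**Figure D3:**
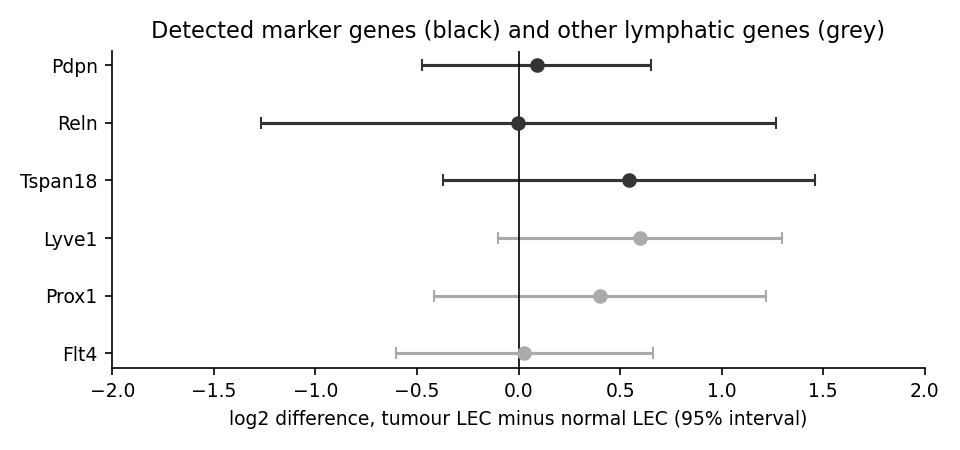
Log2 difference, tumour LEC minus normal LEC, with its 95% interval (horizontal axis), for the 3 detected marker genes (black) and for Lyve1, Prox1 and Flt4 (grey). Every interval crosses 0, and that of Reln, -1.27 to 1.27, is wider than that of Pdpn, -0.47 to 0.65.

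The reelin pathway list gave 0 genes past the threshold among 19 tested of 22, with a median difference of -0.15. The groups did not overlap for 4 of the 19 (21.1%), against 32.4% of all genes tested. Vldlr, a reelin receptor, read 10.34, 8.50 and 10.35 in tumour LEC and 11.23, 10.29 and 10.71 in normal LEC, a difference of -1.01 (SE 0.57, limma adjusted p = 0.446), on a probe set of a type prone to cross-hybridization. As with Reln, tumour replicate 2 was the lowest array. Lrp8, the other main reelin receptor, differed by -0.64 (SE 0.37, adjusted p = 0.447). Dab1, the adaptor that carries the signal in neurons, and Adamts3, a protease that cleaves reelin, were at background on all arrays. The smallest p-values belonged to the endocytic receptor Lrp1, at -4.21 (SE 0.74, limma adjusted p = 0.0976), and the protease Adamts4, at -1.40 (SE 0.25, limma adjusted p = 0.0977). With tumour replicate 2 raised to its background limit, the mean of Lrp1 was 17.6-fold lower in tumour LEC. That fold is a lower bound for the means only and makes no allowance for the spread between arrays. Lrp1 is known to be abundant in fibroblasts, and for 13 of the 15 fibroblast genes the tumour arrays lay below the normal ones, and for 1 above them. Whether fibroblast RNA bears on Lrp1, or on the other genes that read lower in tumour LEC, was not tested.

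Mmrn1 could not be compared. Its brighter probe set read 2.86, 2.88 and 3.11 in tumour LEC and 2.80, 3.30 and 2.79 in normal LEC, and the other read between 2.62 and 2.73. All 12 readings were at background, so neither a level nor a fold change is given (limma adjusted p = 0.978 for the brighter set). Its endothelial relative Mmrn2 was well above background, with 13.41, 12.68 and 13.19 for tumour LEC and 11.50, 9.88 and 12.66 for normal LEC. The groups did not overlap for Mmrn2, yet its difference of 1.75 (SE 0.71) did not pass (limma adjusted p = 0.328).

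In the EMILIN and multimerin list 0 of 12 genes passed, with a median difference of 0.077 and 4 without overlap (33.3%), near the 32.4% of all genes tested. Emilin2, a matrix glycoprotein of the same family, was at background on all 3 tumour arrays and read 7.77, 5.62 and 7.04 in normal LEC. Its limma adjusted p was 0.0828 on the values as deposited. With tumour values raised to the background limits, its mean was 9.44-fold lower in tumour LEC. That fold is a lower bound for the means only and makes no allowance for the spread between arrays. Itgb3, an integrin chain, differed by 1.28 (SE 0.31, adjusted p = 0.173). F5, which encodes the factor V bound by multimerin 1, was at background on all arrays. Pf4, a platelet gene, ranged between 7.10 and 9.36 on the tumour arrays and between 6.84 and 9.56 on the normal arrays. Mmrn1 was thus at background on arrays where Pf4 was not. Of 7 platelet genes listed, 6 had a probe set and only 2 were tested, while Clec1b was at background on all arrays. Whether the arrays held platelet RNA was not tested.

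The detected genes did not share a profile over the arrays. Likeness was measured as the root mean square difference between gene-centred log2 values over the 6 arrays, as a description without a test. The values were not scaled, so genes that vary by unlike amounts lie far apart even where their patterns are alike. Tumour replicate 2 was the lowest array for Reln and the lowest tumour array for Prox1, Lyve1 and Flt4, the VEGF-C receptor. Reln differed from Prox1 by 0.331, and 0.180% of 11105 genes above background on some array lay closer to Reln than Prox1 did. The same share was 0.720% for Flt4, 1.77% for Lyve1 and 32.0% for Tspan18. The closest genes of all were Csgalnact1 (0.191), Rasip1 (0.198) and Ank2 (0.203).

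Pdpn ran differently from Reln and from the identity genes. Its lowest array was tumour replicate 1, where Reln and Tspan18 were highest. Of the 11105 genes 80.6% lay closer to Pdpn than Reln did, and 70.7% lay closer than Prox1. These shares also reflect how little Pdpn varied, with an SD of 0.022 among the normal arrays. The closest were Nup153 (0.058), Pign (0.065) and Ss18l2 (0.067). For Tspan18 the closest were Slc8b1 (0.080), Tmem64 (0.087) and Cnp (0.098), and 4.79% lay closer than Prox1. The closest to Fxyd6 were Hps6, Dtx1 and Mta1, and to Mmrn1 Slc2a4rg-ps, Nkd1 and Nsd1, but these 2 members varied only within or near background. All such distances rest on 6 arrays in 2 groups and share any array-wide variation.

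**Figure D4:**
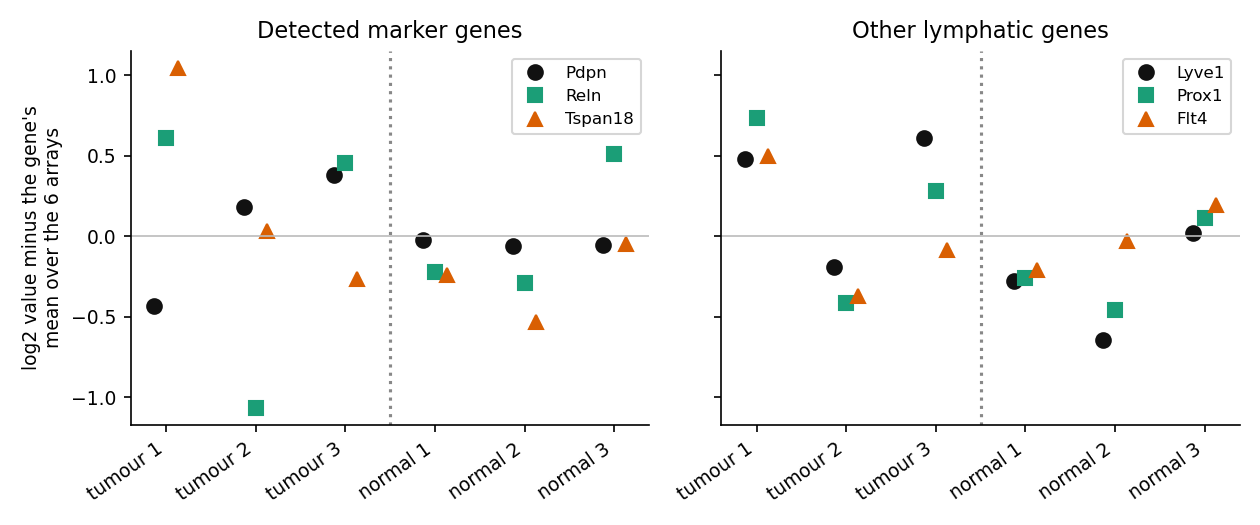
Gene-centred log2 values (vertical axis: value minus the gene's mean over the 6 arrays) by array, tumour LEC left of the dotted line and normal LEC right of it, for Pdpn, Reln and Tspan18 and for Lyve1, Prox1 and Flt4. Tumour replicate 2 is low for Reln (-1.07), Prox1 and Flt4, and tumour replicate 1 is low for Pdpn (-0.43) and high for Tspan18 (1.05).

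Other lymphatic genes gave the setting for these values. Of 29 further surface and secreted lymphatic genes 26 were tested and 0 passed, with a median difference of 0.23. Without overlap 5 were higher and 1 lower in tumour LEC, 23.1% of the 26 against 32.4% of all genes tested. Sema3d, a secreted semaphorin, had the smallest p, with 8.79, 9.90 and 10.05 in tumour LEC and 6.31, 6.99 and 5.90 in normal LEC (difference 3.18, SE 0.44, limma adjusted p = 0.0774). Robo1, a guidance receptor, was at background on all 3 tumour arrays (limma adjusted p = 0.0976 on the values as deposited). With tumour values raised to the background limits, its mean was 3.19-fold lower in tumour LEC, again a bound for the means only. Of 14 lymphatic transcription factors 12 were tested and 0 passed, with a median of 0.34. Foxc2, needed for lymphatic valves, differed by -1.74 (SE 0.36) and Tbx1 by 1.36 (SE 0.39). Over all 7 lists, 113 genes counted once, 0 passed, 21 had an unadjusted p under 0.05 and 25.7% had groups without overlap, against 32.4% of all genes tested. The 2 shares are not fully alike, since 7 of the 113 genes were at background on all arrays, against 1849 of all 12954.

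The direction of Pdpn and Tspan18 turned under one scaling. When each array was centred on the median of its pan-endothelial genes, every difference moved by -0.67, and Pdpn was then -0.58, Reln -0.67 and Tspan18 -0.12, each with SE 0.65 and limma adjusted p of 0.609, 0.609 and 0.886. None of these differences relative to the endothelial genes passed the threshold. With quantile normalization Tspan18 differed by 0.77 (adjusted p = 0.297). In all 17 alternative settings 0 of the member genes tested passed.

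**Figure D5:**
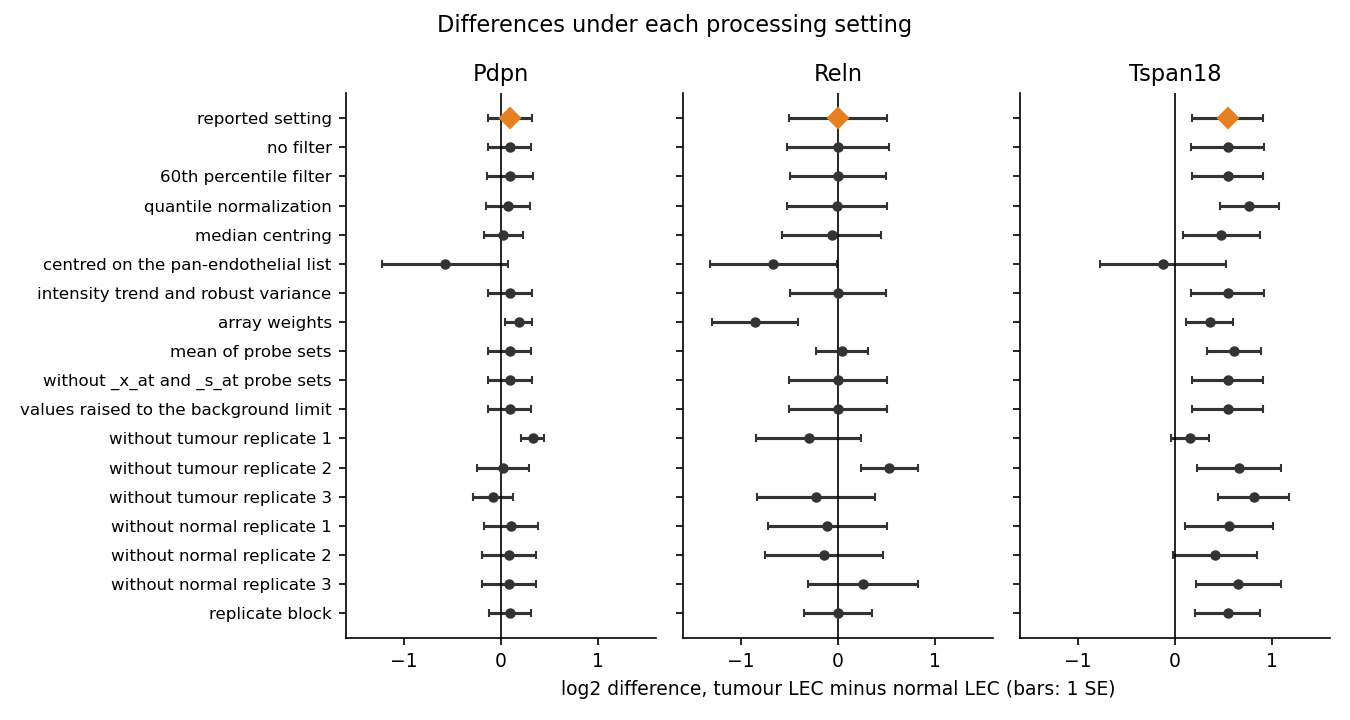
Log2 difference, tumour LEC minus normal LEC, with 1 SE (horizontal axis), of Pdpn, Reln and Tspan18 under the reported setting (orange) and 17 alternatives (rows). Pdpn stays between -0.58 and 0.33, Reln between -0.86 and 0.53 and Tspan18 between -0.12 and 0.81.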

How the data were processed

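RNA of 6 Affymetrix arrays, from 50 ng of total RNA each per the labels' protocols, was analysed from the deposited log2 values of 45101 probe sets. The submitters' processing notes name RMA and GCRMA without saying which of them made the deposited log2 values. GCRMA draws dim signals towards a floor. Of the probe sets 34945 had 1 gene in GEO's platform annotation, which is old, 932 several and 9160 none listed. Symbols were updated through a RefSeq table of GRCm38.p6. Probe sets with a mean above the 40th percentile (2.71) were kept and the brightest per gene used. This filter lies under the background limits, so Mmrn1 and Fxyd6 passed it. Groups were compared with limma 3.58.1 in R 4.3.3 (lmFit, eBayes, Benjamini-Hochberg over 12954 genes, two-sided, 0.05), tested on simulated data. With 3 arrays a group an exact permutation test cannot go below 0.1, so none was run. The number of arrays limits precision. The members and lists were chosen with earlier results of these data known. Named were the members, fixed partners and cell type checks, the 2 genes of smallest p in each list and the 3 closest profiles per member. One gene of that rule is not reported here.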

Additional observations from a re-analysis of the deposited data

How the results depend on the processing

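None of the 5 genes passed the threshold under any of 17 alternatives, and Mmrn1 and Fxyd6 were not tested with a 60th percentile filter. Some signs turned. Centring on pan-endothelial genes gave -0.58 for Pdpn and -0.12 for Tspan18, by construction, since it moves every difference by -0.67. Median centring moves each by -0.065. The mean of probe sets gave 0.039 for Reln, and raising values to the background limit gave 0.14 for Mmrn1 and 0.049 for Fxyd6, which then carry the limits themselves. Leaving out single arrays gave ranges of -0.080 to 0.33 for Pdpn, -0.30 to 0.53 for Reln, -0.095 to 0.16 for Mmrn1, -0.56 to -0.068 for Fxyd6 and 0.15 to 0.81 for Tspan18, and the causes were not tested. Other settings kept the sign.

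The count over all genes was 28 (6 higher, 22 lower). It was 10 with no filter, 97 with the stricter filter, 385 with array weights (125 higher, 260 lower), 54 with values raised to the limit, 654 with pan-endothelial centring (38 higher, 616 lower) and 35 with quantile normalization (11 higher, 24 lower), and, with single arrays left out, 81 without normal replicate 1, 6 without normal replicate 3 and 9, 11 and 4 without tumour replicates 1, 2 and 3 (range 4 to 81). The pan-endothelial fit gave the 5 genes the same SE, so its count of 654 is not directly comparable with the others. With the replicate block the count was 46, and 0 of the 5 genes passed (Tspan18 at 0.54, adjusted p = 0.470, limma). The SE of Reln was 0.35 in that fit, against 0.51 in the reported one. Deviations of arrays sharing a number correlated at 0.193, 0.326 and -0.00383, and those of arrays with different numbers at -0.365 to 0.135. Of 6 arrays 4 correlated best with their own number. These values do not settle whether the numbers pair the arrays, so the reported fit leaves them out and the block fit is given beside it. Signal near background limits Mmrn1 and Fxyd6, and 3 arrays a group limit the rest.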
